A study of Mus musculus with 35 samples.

Results

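A processed pseudogene is a DNA copy of a spliced messenger RNA that was written back into the genome by reverse transcription. Such copies usually lack introns and arrive without the promoter of the gene they were copied from, and many carry stop codons or shifts of the reading frame. Some are transcribed nonetheless, and testis is the tissue best known for transcribing them. Described here are the genes that the mouse annotation deposited with the study marks as transcribed processed pseudogenes. That annotation held 296 genes of this type; 34 with a name ending in -ps were left out, and the remaining 262 of 55356 genes in the count table are the members. A further 5 genes that GENCODE M21 gives this type were counted under Iso-seq loci, which carry no gene type, and are not among the members. RefSeq (GRCm38.p6) held 197 of the members by symbol and typed 11 of them as protein coding, among them *Zfp640*, *Ppp1ccb* and *Rpl37rt*. It typed others as long non-coding RNA genes, among them *2810025M15Rik*, *2010010A06Rik* and *4932415M13Rik*. Others again were transcribed pseudogenes there as well, such as *1700001J11Rik* and *1700022A21Rik*.

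Total RNA depleted of ribosomal RNA was sequenced from adult C57BL/6J mice, an inbred laboratory strain, with no treatment given in the labels. The 29 libraries formed 10 groups, namely brain, cerebellum, heart, colon and gonad of each sex, with 3 libraries a group and 2 for male heart. The female gonad is called ovary and the male gonad testis. Tissue means pool both sexes, which gives 6 libraries for brain, cerebellum and colon, 5 for heart and 3 each for ovary and testis. The sources used here do not say which animals gave which libraries, so p-values measure the spread between libraries. The libraries are whole tissues, in which more cells of a type cannot be told apart from more RNA per cell. Levels are in FPKM, here counts divided by the summed counts of each library and by exon length.

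Library totals ran from 11742417 to 36194255 counts. Of 22 marker genes for tissue and sex, 20 were higher in every library of the labelled tissue or sex than in every other library. The exceptions included *Gdf9*, counted under an Iso-seq locus that was highest in heart. The ovary marker *Zp3* averaged 3.41 FPKM in ovary and at most 0.0952 FPKM elsewhere. The 3 testis markers, summed, reached 9.74 FPKM in a colon library and at most 0.758 FPKM in the other tissues outside testis. Whether this bears on the colon values of testis members was not tested. Markers of other cell types were present in most tissues. The summed level of 3 fat markers ran from 0.534 to 3099.9 FPKM across heart libraries and from 22.1 to 335 FPKM across ovary libraries. Across testis libraries it ran from 132 to 170 FPKM. That of 3 epididymis markers ran from 0.233 to 38.0 FPKM across testis libraries. That of 3 choroid plexus markers ran from 18.8 to 1551 FPKM across brain and from 1018 to 3862 FPKM across cerebellum libraries. The part of such cells in the values below was not tested.

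Stretches aligned to the most similar protein-coding transcript show what kind of copies the members are. *Rps4l* and *BC106175* are shown because they are among the highest members in testis, *1700001J11Rik* because it carries a premature stop codon, and *Gm15500* because it is identical to its coding counterpart. Capitals mark bases that differ, except in the *1700001J11Rik* pair, where they mark the stop codon and the codon opposite it. The member transcripts and coding transcripts were read from GENCODE M21 (GRCm38). The *Rps4l* stretch begins at the start codon of *Rps4x*, which encodes a protein of the small ribosomal subunit, and lies at chr6:148354710-148354799 on the plus strand.
Rps4l: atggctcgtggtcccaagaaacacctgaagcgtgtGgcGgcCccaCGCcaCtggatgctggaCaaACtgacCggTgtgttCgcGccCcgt
Rps4x: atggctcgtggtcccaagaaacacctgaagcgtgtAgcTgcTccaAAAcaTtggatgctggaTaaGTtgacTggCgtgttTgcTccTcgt
The *BC106175* stretch begins at the start codon of *Prr30*, a gene for a proline-rich protein, and lies at chr12:8480244-8480303 on the minus strand.
BC106175: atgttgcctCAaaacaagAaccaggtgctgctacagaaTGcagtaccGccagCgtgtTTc
Prr30: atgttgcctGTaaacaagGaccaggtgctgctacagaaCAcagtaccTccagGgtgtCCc
The *1700001J11Rik* stretch surrounds a stop codon opposite codon 803 of *Rnf19a*, an E3 ubiquitin ligase, and lies at chr9:40052876-40052959 on the plus strand.
1700001J11Rik: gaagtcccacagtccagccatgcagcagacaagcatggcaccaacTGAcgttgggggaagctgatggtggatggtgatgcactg
Rnf19a: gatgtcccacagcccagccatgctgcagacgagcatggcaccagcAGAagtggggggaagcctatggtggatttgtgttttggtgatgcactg
The *Gm15500* stretch begins at the start codon of *Rpl5*, which encodes a protein of the large ribosomal subunit, and lies at chr7:114706074-114706163 on the minus strand. It has the same 90 bases as *Rpl5*.
Gm15500: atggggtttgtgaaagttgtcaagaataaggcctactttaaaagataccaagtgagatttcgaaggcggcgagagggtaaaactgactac

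Of the members, 258 had a transcript in GENCODE M21 and 244 of these matched a protein-coding transcript of another gene, called the closest coding gene. The median identity of the match was 88.7% (quartiles 80.4% and 95.3%), and it ran in the same orientation as the coding transcript in 231 members and against it in 13. The match covered a median of 79.9% of the member transcript, but only 9.18% in *4933416E14Rik*. A match over at least 50% of the transcript was found for 170 members, so the closest coding gene of others rests on a part. The matches fell on 197 coding genes. Ribosomal protein genes were the closest genes of 40 members, with *Rpl29* closest to 7, and *Gapdh*, the glycolytic enzyme, was closest to 4. Among 168 members that covered at least 50% of the closest coding part in the same orientation, 42 had neither a frame-shifting gap nor a stop codon within the aligned part. *Rps4l* was one of these, with 79.7% identity to *Rps4x*. By contrast *1700001J11Rik* had 2 stop codons in the frame of *Rnf19a* and 0 frame-shifting gaps, at 89.9% identity. The first stop stood opposite codon 803, with 809 codons compared, so both stops lay late in the coding part. *BC106175* had 6 frame-shifting gaps against *Prr30* at 81.4% identity.

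The members often had more than the single exon of a simple copy. A transcript with several exons was annotated for 137 of 262 members (52.3%), against 955 of 9993 (9.56%) processed pseudogenes not marked as transcribed and 239 of 265 (90.2%) transcribed unprocessed pseudogenes. *Gm36128* had the most exons, 11, followed by *A930017M01Rik* with 10 and *5430437J10Rik* with 9. The polyadenylation signal AATAAA stood in the last 50 bases of the longest transcript in 73 of 258 members (28.3%), in 69 of 261 transcribed unprocessed pseudogenes (26.4%), in 1.62% of processed pseudogenes not marked as transcribed and in 51.5% of protein-coding genes that kept their own ENSEMBL entry. These shares describe annotated models, not measured transcript ends. Exon bases were shared with another gene on the same strand in 38 members and on the opposite strand in 28, and 21 members lay on chromosome X.

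Most members were weakly expressed, and 78 of 262 (29.8%, 95% Wilson interval 24.6 to 35.6%) reached a mean of 1 FPKM in at least 1 tissue. No count was found for 25 members, 47 stayed under 0.1 FPKM, 112 peaked between 0.1 and 1 FPKM, 66 between 1 and 10 FPKM and 12 at 10 FPKM or more. The last members inside the 1 FPKM limit were *Gm15760* at 1.08 FPKM and *Gm4032* at 1.04 FPKM, and the first outside it were *4933427G23Rik* at 0.999 FPKM and *Gm3086* at 0.997 FPKM. Among processed pseudogenes not marked as transcribed, 8.76% reached 1 FPKM, and among 265 transcribed unprocessed pseudogenes, which are duplicates made in DNA, 28.7% did. The share over all genes was 44.6%. The intervals cover counting error only.

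Testis was the tissue of the highest mean for 40 of these 78 members (51.3%, 95% Wilson interval 40.4 to 62.1%), ovary for 17, colon for 9, brain for 5, cerebellum for 4 and heart for 3. The corresponding share for testis was 28.5% over all genes at 1 FPKM, 36.5% over processed pseudogenes not marked as transcribed and 52.6% over transcribed unprocessed pseudogenes. In testis 46 members reached 1 FPKM, and 34 members did so in testis alone. Tissue specificity, given as tau (0 for equal levels in 6 tissues and 1 for a single tissue), had a median of 0.84 over the 78 members (quartiles 0.65 and 0.99) and of 0.73 over all genes at 1 FPKM.

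**Figure D1:**
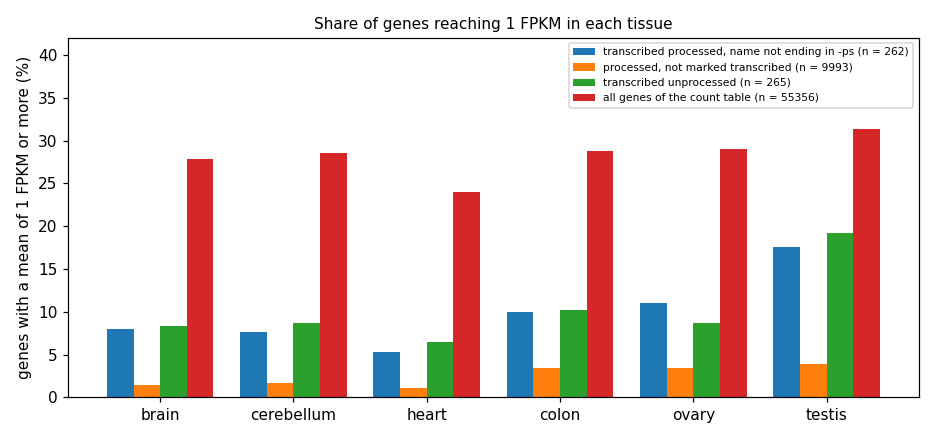
Share of genes (%) with a tissue mean of 1 FPKM or more, for the 262 members and 3 other gene sets in each of 6 tissues. The members stand highest in testis (17.6%) and lowest in heart (5.34%), above processed pseudogenes not marked as transcribed in every tissue.

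The members took up 0.189 to 0.210% of all counts in the 3 testis libraries and at most 0.0266% in any other library. Without *BC106175* the testis libraries still lay between 0.115 and 0.123%. The groups did not overlap. A few members held most of these counts. In the second testis library all members together had 65032 counts. Of these *BC106175* had 28717, *1700001J11Rik* 13891, *1700022A21Rik* 5066, *2810025M15Rik* 2550 and *Rps4l* 2148.

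**Figure D2:**
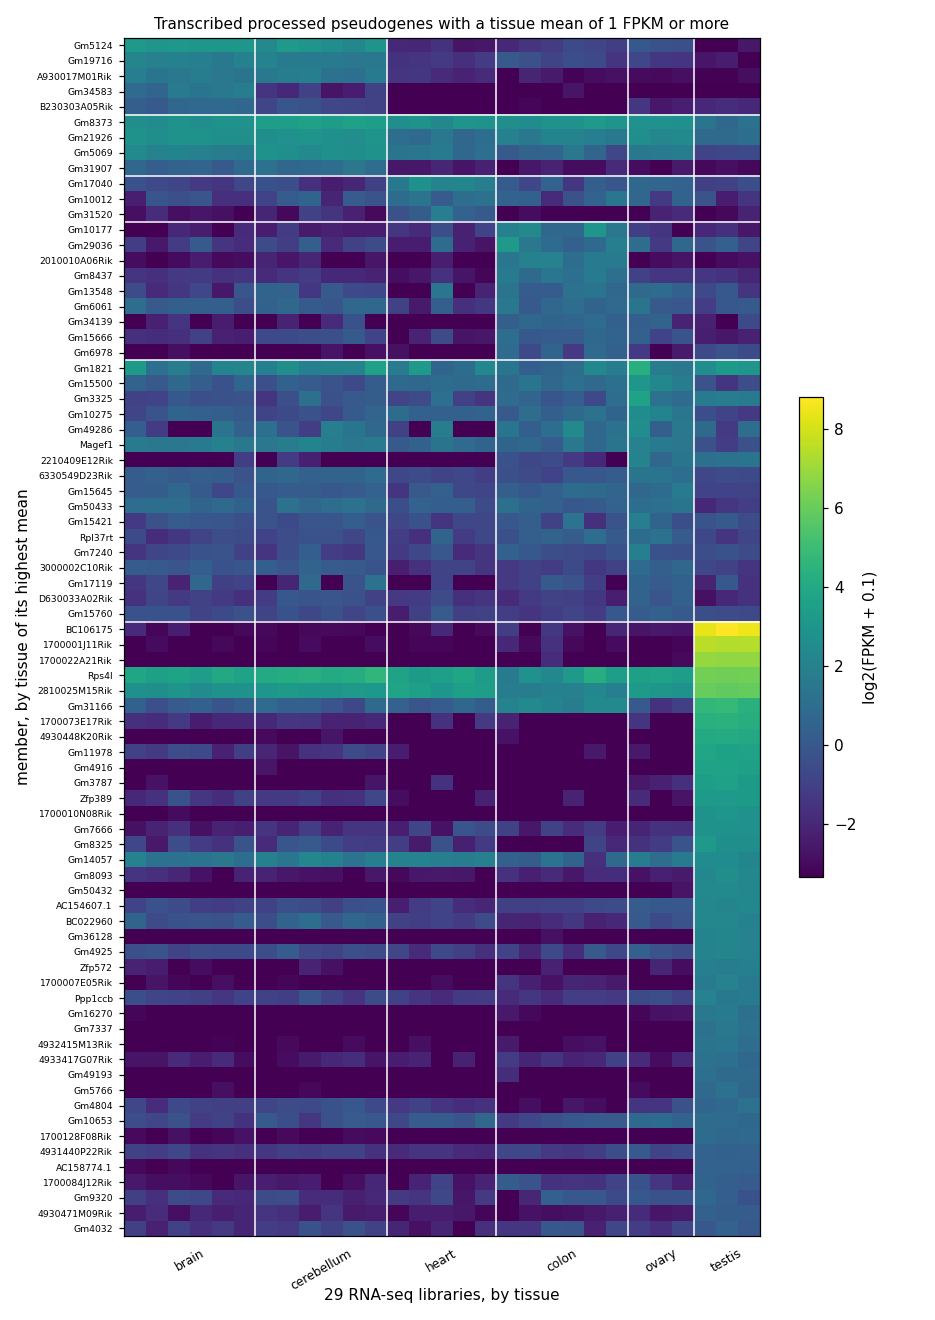
Level of the 78 members with a tissue mean of 1 FPKM or more (rows, by tissue of the highest mean) in each of 29 libraries (columns), as log2(FPKM + 0.1). The 40 testis members form the block at the lower right, and *Rps4l*, *2810025M15Rik* and *Gm14057* are the rows of that block that stay bright across the other tissues.

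The filter on low counts left 148 members in the tests across genes, and 114 members were not tested. Each tissue was compared with the mean of the other groups with the quasi-likelihood test of edgeR, and p-values were adjusted by the Benjamini-Hochberg method across the 29911 genes that passed the filter. Testis gave the most differences. In testis 72 of the 148 members rose and 18 fell, against 40.6% of all tested genes called higher and 26.7% called lower. The median log2 difference was 1.03 over the members and 0.11 over all tested genes. Every testis library was above every other library in 52 of the 148, against 23.3% of all tested genes. The filter keeps genes that are high in testis and near 0 elsewhere, so these shares describe the members that passed it. Against ovary, 65 members were higher in testis and 22 lower (37.8% and 26.5% of all tested genes).

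*BC106175* (chr12:8478874-8482157, minus strand) was the highest member. Its level was 339, 450 and 359 FPKM in the 3 testis libraries and at most 0.371 FPKM in any other library. Testis took 99.9% of its counts, and the log2 difference was 13.54 (SE 0.24, adjusted p = 7.85e-25). *Prr30* was a testis gene as well, at 232 FPKM in testis and at most 0.162 FPKM in any other tissue mean.

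*1700001J11Rik* (chr9:40050365-40053028, plus strand) measured 189, 169 and 174 FPKM in testis and at most 0.229 FPKM elsewhere (log2 difference 14.01, SE 0.21, adjusted p = 2.07e-25). *Rnf19a* averaged 94.5 FPKM in testis and 6.40 to 17.6 FPKM in the other tissues. The copy and the coding gene therefore both peaked in testis, but only the coding gene was measured above 1 FPKM elsewhere.

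*1700022A21Rik* (chr5:24645453-24648860, plus strand) measured 119, 113 and 114 FPKM in testis and at most 0.188 FPKM elsewhere, in a colon library (log2 difference 14.53, SE 0.26, adjusted p = 1.22e-14). Its closest coding gene, *Gpd1l* (79.7% identity), a relative of glycerol-3-phosphate dehydrogenase, was lowest in testis with a mean of 3.95 FPKM and highest in brain with 25.1 FPKM.

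*Rps4l* (chr6:148354656-148355598, plus strand) was expressed in all 6 tissues. It measured 75.5, 73.7 and 73.9 FPKM in testis, and the tissue means elsewhere ran from 9.09 FPKM in colon to 19.2 FPKM in cerebellum (log2 difference 2.79, SE 0.16, adjusted p = 3.57e-14). The highest library outside testis reached 25.3 FPKM, so that testis did not overlap the other groups. *Rps4x* had its highest mean in ovary and its lowest, 144 FPKM, in testis. *2810025M15Rik* (chr1:157412352-157420236, plus strand) had a like pattern, with 64.2, 58.5 and 62.4 FPKM in testis and at most 13.6 FPKM elsewhere (log2 difference 3.29, SE 0.14, adjusted p = 2.41e-17). It shares exon bases with *Rasal2* on the opposite strand. Whether reads were assigned by strand is not given in the sources used here, so reads of such overlapping genes may not be separable.

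Several members with names of their own were testis members at lower levels. *Zfp389*, named as a zinc finger gene, measured 9.82, 9.04 and 9.56 FPKM in testis and at most 0.743 FPKM elsewhere. *Zfp572*, another zinc finger name, had 3.71, 3.33 and 3.63 FPKM in testis and at most 0.136 FPKM elsewhere. *Zfp640* stayed lower, at 0.384, 0.652 and 0.299 FPKM. All 3 were called higher in testis (log2 differences 7.03, 7.89 and 7.10, adjusted p = 1.30e-14, 1.72e-11 and 9.11e-07). With DESeq2 the log2 difference of *Zfp640* was 6.60 and its adjusted p 0.0657. *Gpr31c* was called too, at only 0.220 to 0.279 FPKM in testis. *Gm36128*, the member with the most exons, measured 4.37, 4.71 and 4.09 FPKM in testis and at most 0.0461 FPKM elsewhere, and shares exon bases with *4930448C13Rik* on the opposite strand.

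*Gm7337* had no count outside testis. With a floor of 3 counts per library it was at least 22.9-fold higher in the lowest testis library than the highest floor of the other libraries, at a testis mean of 2.42 FPKM.

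**Figure D3:**
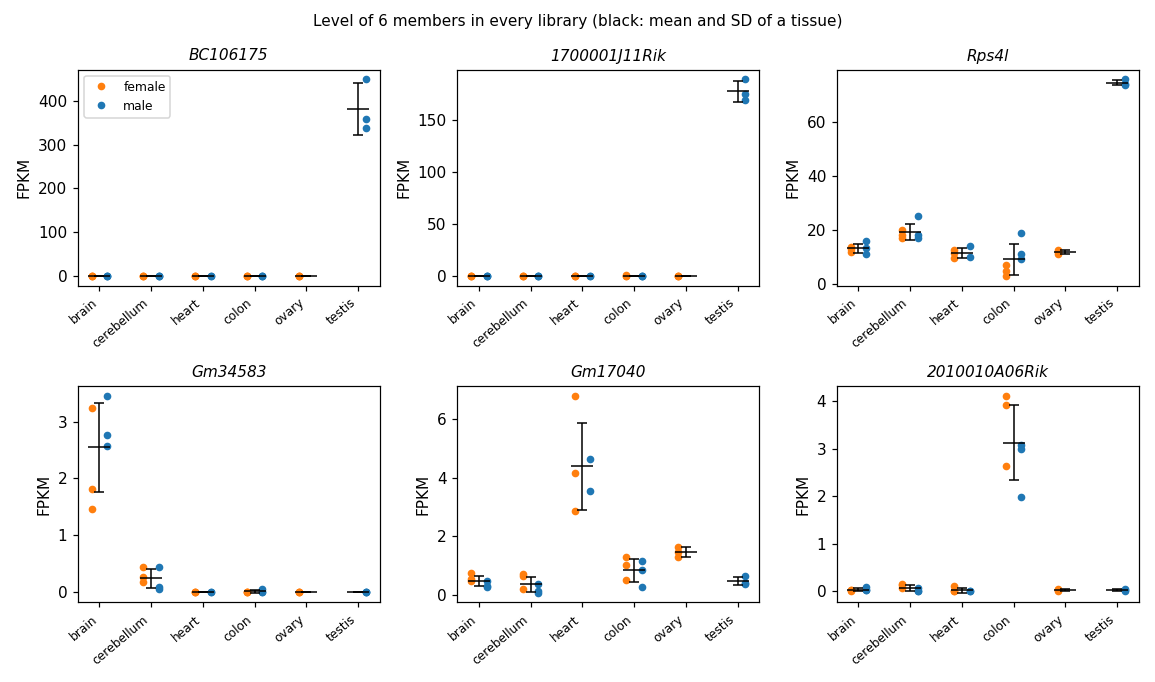
FPKM of 6 members in every library, with female libraries in orange, male libraries in blue and the mean and SD of each tissue in black. *BC106175* and *1700001J11Rik* are near 0 outside testis, *Rps4l* lies between 3.07 and 25.3 FPKM there, and *Gm34583*, *Gm17040* and *2010010A06Rik* peak in brain, heart and colon.

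With both directions together, the share of tested members called was below that of all tested genes in each of the 6 tissues, testis included. A call depends on the counts of a gene as well as on its difference, and most members were weakly expressed. Whether the members differ less between tissues than other genes was not tested. In brain 30 members rose and 18 fell (33.5% and 22.3% of all tested genes), in cerebellum 31 rose and 15 fell (31.2% and 20.9%), in heart 15 rose and 31 fell (22.6% and 29.5%), in colon 38 rose and 26 fell (29.1% and 31.3%) and in ovary 23 rose and 11 fell (22.7% and 19.2%). The balance of the 2 directions reversed with DESeq2 in 3 tissues, and with the scaling alone it was lost in brain. In brain 26 rose and 26 fell with DESeq2 size factors in edgeR, and 27 rose and 38 fell with DESeq2. DESeq2 gave 27 higher and 31 lower in cerebellum, and 18 higher and 26 lower in ovary. With the size factors in edgeR, 27 rose and 19 fell in cerebellum, and 23 rose and 11 fell in ovary. These size factors shifted the median log2 difference of all tested genes in brain by -0.13. The shares over all genes under these settings are not given here, so the changes are not shown to concern the members alone. Few of the 148 tested members were higher in every library of a tissue than in all other libraries, namely 2 in brain (4.93% of all tested genes), 1 in cerebellum (2.69%), 3 in heart (3.43%), 5 in colon (6.52%) and 5 in ovary (8.31%). A further 2 members in ovary that did not overlap were not tested.

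In brain, *Gm34583* (chr5:73380560-73391102, plus strand), whose closest gene is *Rpl29*, ran from 1.46 to 3.45 FPKM with a median of 2.67 FPKM. The highest cerebellum library had 0.434 FPKM, and heart, ovary and testis had no count (log2 difference 7.24, SE 0.43, adjusted p = 1.27e-10). *B230303A05Rik* ran from 0.975 to 1.69 FPKM with a median of 1.52 FPKM in brain and reached 0.836 FPKM in cerebellum (log2 difference 5.88, SE 0.27, adjusted p = 4.25e-14), and shares exon bases with *A530046M15Rik* on the opposite strand. Neither overlapped cerebellum, the next highest tissue for both.

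*A930017M01Rik* (chr15:44752280-44884740, plus strand), the member of this list that the study's text names, was shared by brain and cerebellum. It averaged 2.89 ± 0.45 FPKM (SD, n = 6) in brain and 2.87 ± 0.58 FPKM (SD, n = 6) in cerebellum, and 0.204 FPKM or less in the other tissue means. The brain and cerebellum libraries overlapped. Its match to *Smg5*, a factor of nonsense-mediated decay, was the weakest of all members at 64.8% identity, and it shares exon bases with *Sybu* on the opposite strand. Between brain and cerebellum, 10 members were higher in brain and 5 in cerebellum (15.3% and 10.8% of all tested genes), and with no filter on low counts 10 and 3. These 15 calls became 9 without the second female brain library, and 9 without the second male cerebellum library.

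In cerebellum, *Gm8373* (chr17:30603105-30605211, plus strand) ran from 10.1 to 12.3 FPKM with a median of 11.0 FPKM, and the highest library elsewhere had 9.09 FPKM. The difference was small (log2 difference 0.74, SE 0.12, adjusted p = 8.65e-06), and the member was found in all tissues, with its lowest mean of 2.09 FPKM in testis. It shares exon bases with *Glo1*, the glyoxalase gene, on the opposite strand.

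In heart, *Gm17040* (chr9:107292435-107297192, minus strand) measured 2.86, 6.77 and 4.16 FPKM in female and 4.62 and 3.54 FPKM in male libraries, and at most 1.64 FPKM elsewhere (log2 difference 3.44, SE 0.25, adjusted p = 6.98e-12). It shares exon bases with *Cish*, a suppressor of cytokine signalling, on the opposite strand. *Gm31520* measured 0.707, 1.11 and 3.51 FPKM in female and 1.30 and 0.969 FPKM in male heart, and 0.410 FPKM at most elsewhere (adjusted p = 2.59e-09). *Gm10110*, 98.8% identical to *Pabpc4*, which encodes a poly(A)-binding protein, averaged 0.517 FPKM in heart, and *Pabpc4* itself was highest in heart with 124 FPKM.

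In colon, *2010010A06Rik* ran from 1.99 to 4.11 FPKM with a median of 3.05 FPKM and had at most 0.151 FPKM elsewhere (log2 difference 6.55, SE 0.36, adjusted p = 4.32e-14). No coding transcript matched it. *Gm8437* ran from 1.75 to 3.07 FPKM in colon and reached 0.411 FPKM elsewhere (log2 difference 3.63, SE 0.18, adjusted p = 1.87e-15), and shares exon bases with *Slc37a1* on the opposite strand. *Gm10177* varied more, from 1.53 to 8.15 FPKM in colon (adjusted p = 6.18e-10). *Gm28693* and *Gm4410* were called at lower colon means of 0.834 and 0.604 FPKM, and *Gm4410* had no count in any library outside colon. With DESeq2 the adjusted p of *Gm4410* was 0.155.

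In ovary, *Gm15500* (chr7:114705217-114706235, minus strand) measured 8.54, 4.97 and 3.46 FPKM and at most 2.53 FPKM elsewhere (log2 difference 1.66, SE 0.25, adjusted p = 3.90e-06). *Gm10275*, identical to *Rpl12* over the match, measured 5.94, 4.30 and 2.58 FPKM and at most 2.18 FPKM elsewhere (log2 difference 1.52, SE 0.30, adjusted p = 1.46e-04). *6330549D23Rik* was more even over the ovary libraries, at 2.51, 2.54 and 1.97 FPKM (log2 difference 1.02, adjusted p = 4.66e-05). It shares exon bases with *Lix1l* on the opposite strand. *Gm6211* was called at 1.31, 0.216 and 0.250 FPKM in ovary, where the first library set the mean, and *Gm5434* at 0.229, 0.637 and 0.589 FPKM. The first ovary library was the highest for *Gm15500*, *Gm10275* and *Gm6211*, and without it 21 members were called in ovary in place of 34. Leaving out members that share exon bases with another gene gave 22 ovary calls.

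Few members were expressed in every tissue, and 6 reached 1 FPKM in all 6 tissues. Beside *Rps4l*, *2810025M15Rik* and *Gm8373* these were *Gm21926*, *Gm14057* and *Gm1821*. Reaching this level did not mean even expression, and the tau of *2810025M15Rik* was 0.87. *Gm21926* ran from 1.82 FPKM in testis to 6.92 FPKM in cerebellum, with 6.87 FPKM in brain, and the brain and cerebellum libraries overlapped. *Gm14057* ran from 1.35 FPKM in colon to 5.46 FPKM in testis. *Gm1821*, 97.7% identical to the ubiquitin gene *Ubb*, measured 19.3, 3.39 and 2.74 FPKM in ovary, where 1 library set the mean, and was not called there (adjusted p = 0.610). *Magef1*, of the MAGE family, was broad as well, from 0.583 FPKM in testis to 3.31 FPKM in ovary, without a call in ovary (adjusted p = 0.348). *Pea15b* averaged at most 0.0307 FPKM and *AA684185* had no count, and neither was tested.

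Levels of members and closest coding genes were set side by side. Of 70 members at 1 FPKM with a measured closest gene, 20 had their highest mean in the same tissue as that gene. Among the 35 of these that peaked in testis it was 10, and among the 35 that peaked elsewhere it was 10 as well. Members whose closest gene is a ribosomal protein gene reached 1 FPKM in 17 of 40 cases, and 8 of the 17 peaked in testis and 4 in ovary.

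A separate group of 18 members was at least 99% identical to the coding transcript over at least 90% of its own length. Only reads that mapped to a single place were kept by the authors, so a read that fits the copy and the coding gene equally well is not counted for either. Of the 18, 6 reached 1 FPKM and 2 had no count. *Gm15500* received 2.52 to 8.52 counts per 1000 counts of *Rpl5* in the 29 libraries, while its own count ran from 8 to 157. *Gm10275* received 1.15 to 6.05 counts per 1000 counts of *Rpl12*. For *Gm15500* the tissue medians of this ratio ran from 4.29 in testis to 7.23 in heart, while its tissue means ran from 0.550 FPKM in testis to 5.66 FPKM in ovary. *Rpl5* likewise had its lowest mean in testis and its highest in ovary. Whether those reads came from the copy or from the coding gene was not tested.

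In others the ratio changed with tissue. *Gm7666* (chr15:6653923-6654741, plus strand), 99.9% identical to *Phb*, which encodes a mitochondrial prohibitin, received 156 to 183 counts per 1000 counts of *Phb* in testis and at most 8.03 in any other library. Its level in testis was 6.95 to 7.50 FPKM, against 0.810 FPKM at most elsewhere (log2 difference 5.20, SE 0.30, adjusted p = 2.14e-14). It shares exon bases with *Gm2245* on the opposite strand. *Gm10177*, identical to *Sec61g*, a subunit of the protein translocation channel, over 420 of its 444 bases, received 15.7 to 107 counts per 1000 in colon and at most 5.49 elsewhere. *Ppp1ccb*, 99.8% identical to the phosphatase gene *Ppp1cc*, lay between, with 10.2 to 13.9 counts per 1000 in testis and 2.95 to 12.1 elsewhere. Its level was 4.12, 2.89 and 3.13 FPKM in testis and at most 0.806 FPKM elsewhere (adjusted p = 2.02e-12), and *Ppp1cc* was highest in testis too. *Rpl37rt*, 99.7% identical to *Rpl37* over 50.4% of its transcript, averaged 1.73 FPKM in ovary and was called there (log2 difference 0.98, SE 0.34, adjusted p = 0.0217). Without the first ovary library the log2 difference was 0.99 and not called (adjusted p = 0.0614), and without the second it was 0.67 and not called (adjusted p = 0.238).

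**Figure D4:**
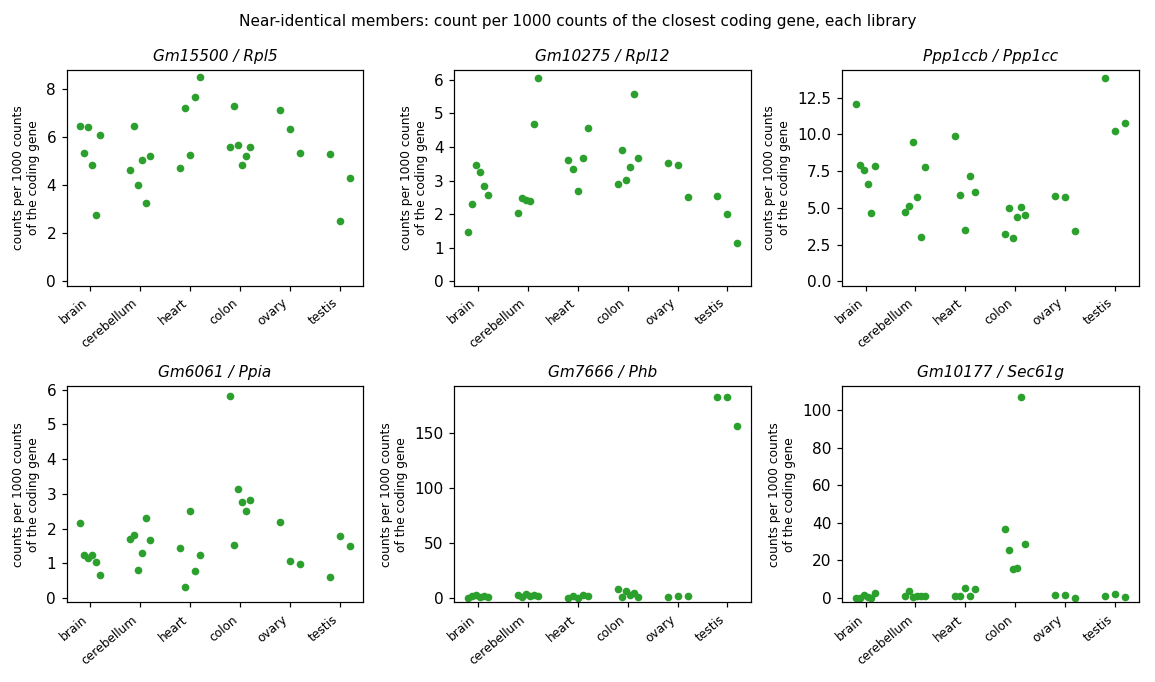
Counts of 6 near-identical members per 1000 counts of the closest coding gene in each of 29 libraries, by tissue. *Gm7666* stands apart in testis and *Gm10177* in colon, while *Gm15500*, *Gm10275* and *Gm6061* keep ratios of 0.320 to 8.52 throughout.

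With all libraries and the filter on low counts, edgeR called no member between the sexes in brain, cerebellum, heart or colon. The share of all tested genes called was 0.0368%, 0.0301%, 0.0635% and 0.324%. At an unadjusted p under 0.05 there were 5, 4, 7 and 13 of 148 members, against 4.83%, 3.06%, 9.65% and 8.85% of all tested genes. DESeq2 called none in brain, cerebellum and heart and 1 in colon. No member was called for an interaction of sex and tissue either (0.0167% of all tested genes), with 3 at an unadjusted p under 0.05 (6.77% of all tested genes) and none by DESeq2. The member closest to a call was *Rps4l* in colon. It measured 9.37, 19.0 and 11.1 FPKM in male and 3.07, 7.02 and 4.97 FPKM in female colon, without overlap (male minus female log2 difference 1.22, SE 0.30, edgeR adjusted p = 0.0883). The DESeq2 adjusted p was 0.00593, and edgeR called it with no filter on low counts (log2 difference 1.28, adjusted p = 0.0417). It was also called by edgeR without the third female heart library (adjusted p = 0.0452) or the second female colon library (adjusted p = 0.0351), and *Gm7666* was called in heart without the second female heart library (log2 difference 3.37, adjusted p = 0.0352).

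Promoter sequence from RefSeq (GRCm38.p6) was matched by symbol for 25 members, and for 20 the window of 250 bases before and 50 after the RefSeq start lay within 1000 bases of the annotated start. On either strand, TATAAA was found in 3 of the 20 windows (13.6% of 32851 promoters of the table), CCAAT in 10 (37.4%), GTTGCC in 3 (12.5%), GGGCGG in 1 (35.7%) and TGACGTCA in 1 (1.79%). The window of *4932415M13Rik*, a testis member with a mean of 2.33 FPKM and 8 exons, is shown with CCAAT and its complement ATTGG in capitals (chr17:53716259-53716558, plus strand).
4932415M13Rik: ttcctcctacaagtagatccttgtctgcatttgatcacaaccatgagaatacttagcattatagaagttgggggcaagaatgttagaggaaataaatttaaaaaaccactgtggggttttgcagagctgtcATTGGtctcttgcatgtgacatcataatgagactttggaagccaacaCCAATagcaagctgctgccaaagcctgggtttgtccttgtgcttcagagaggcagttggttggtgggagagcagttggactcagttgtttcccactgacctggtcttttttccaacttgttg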

How the data were processed

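The authors deposited read counts per gene for 29 rRNA-depleted, strand-specific RNA-seq libraries. Per the labels, reads were aligned with HISAT2 2.0.5 to mm10 and counted with featureCounts 1.6.3, over ENSEMBL genes combined with Iso-seq loci; uniquely mapped reads were kept. The members and marker lists were chosen with earlier results of these data known. Counts were tested with edgeR 4.0.16 (TMM scaling, filter by group, quasi-likelihood, 1 fit of 10 groups; calls at adjusted p under 0.05), after tests on simulated data, with DESeq2 1.42.0 as an alternative. Members named are those in the study's text, up to 5 per tissue with the highest mean that were called there without overlap, up to 5 with the lowest tau at 1 FPKM in all 6 tissues, those with a symbol of their own, and the 3 with the most exons; *Gm7337*, *Gm7666*, *Gm6061* and *4932415M13Rik* were chosen after their values were seen. Closest coding transcripts came from BLAST 2.17.0 (E under 1e-10, hits of at least 100 bases, genes not overlapping the member). Replicates differed by more than sampling noise in all 28 pairs. Same-numbered libraries of different groups correlated at -0.26 to 0.15 (126 pairs, 5 over 0.1), so numbers were not taken as pairs. Sequence beyond annotated ends was not analysed here. Results for some genes that these rules name are not reported here.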

Additional observations from a re-analysis of the deposited data

How the results depend on the processing

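Alternatives were DESeq2, DESeq2 size factors in edgeR, no filter on low counts, the replicate block, leaving out each library, and other FPKM settings. With DESeq2 size factors the median log2 difference of all genes shifted by -0.13 in brain, 0.16 in colon, 0.13 in testis and 0.17 in testis against ovary; no called member turned direction. With libraries left out in turn, calls ran from 80 to 97 in testis, 21 to 37 in ovary, 40 to 53 in brain, 40 to 47 in cerebellum, 31 to 53 in heart, 58 to 68 in colon, 78 to 93 in testis against ovary and 9 to 16 in brain against cerebellum. The fewest, 9, came without the second female brain or the second male cerebellum library. For sex they ran from 0 to 1 in heart (*Gm7666*) and 0 to 1 in colon (*Rps4l*). Colon gave 1 sex call with DESeq2 and 1 with no filter on low counts. Ovary gave 22 calls without members sharing exon bases, where fewer members were tested. The replicate block gave 90 calls in testis and 32 in ovary and moved no total by over 1.5 times; between brain and cerebellum it gave 9 members higher in brain and 2 in cerebellum. At 0.5 FPKM 45.8% of members and at 2 FPKM 19.1% reached the level. The median tau of 0.84 became 0.87 with TMM-scaled library sizes, 0.86 with medians over libraries, 0.86 without members sharing exon bases, 0.82 at 0.5 FPKM and 0.90 at 2 FPKM. *Gm1821* in ovary turned to a log2 difference of -0.91 without the first ovary library. *Rpl37rt* in ovary lost its call without the first or the second ovary library, and *Gm4410* and *Zfp640* passed the threshold no longer with DESeq2, at log2 differences of 5.71 and 6.60. The cause of these changes was not tested.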

Other observations

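Among members that peak in brain the highest, *Gm5124* on chromosome X, was left out above because its cerebellum libraries overlapped brain. It ran from 7.98 to 9.42 FPKM in brain and from 4.77 to 9.25 FPKM in cerebellum, and its highest mean outside them was 0.777 FPKM in ovary (brain against the other groups, edgeR log2 difference 4.29, SE 0.17, adjusted p = 7.74e-18). Its closest coding gene is *Nolc1*, which encodes a nucleolar protein, at 85.0% identity. *Gm31166* on chromosome 19 was highest in testis and next in colon. It ran from 20.9 to 28.3 FPKM in testis and from 3.45 to 5.41 FPKM in colon, and the means of the other tissues were 1.21 FPKM or less. It shares exon bases with *Ovol1*, a transcription factor gene, on the opposite strand. Both were chosen after their values were seen.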
